A study of Rattus norvegicus with 10 samples.

Results

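The miR-379 to miR-410 cluster is a run of miRNA genes in the imprinted Dlk1-Dio3 region, which lies on chromosome 6 in the rat. Its mature products were taken as 59 named arms and were searched for by name among the rat miRNA probes of the array, a rule that uses no intensity. Of the 59 arms, 58 had a probe and only rno-miR-495* had none. The 58 arms were read by 59 of the 679 rat miRNA probes, since miR-299* had 2 probes, of which 1 also reads miR-3563-3p. To study miRNA levels in the mPFC (medial prefrontal cortex) under morphine dependence, the study hybridized total RNA from 5 chronic morphine-treated and 5 saline-treated rats to miRCURY LNA arrays, with 1 array for each rat. All 10 rats were wild-type Sprague Dawley rats aged 2 months. The morphine group received 2 intraperitoneal injections a day for 5 days, at 10 mg/kg on day 1, 20 mg/kg on day 2, 30 mg/kg on day 3 and 40 mg/kg on the other days, and the saline group received saline on the same schedule.

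A miRNA is cut from the arms of a hairpin precursor, and an arm from the 5′ side (5p) and one from the 3′ side (3p) can each be loaded into the silencing complex, where bases 2 to 8, the seed, pair with target mRNAs. The array used the older names, in which a star marks the arm then listed as the minor product. The cluster is transcribed from the maternal chromosome as part of a long noncoding transcript downstream of Meg3, and in rodents its products are known mostly from brain and placenta. In rat hippocampal neurons, its transcription is known to be driven by Mef2 during neuronal activity, and miR-134, miR-329 and miR-381 are known for roles in activity-dependent dendrite growth. These statements are background from other work and not results of the arrays.

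The mature sequences of the 11 arms that rose in the morphine group are given first, because they are the arms called higher by the test described below. They were taken from RefSeq (rat build GRCr8), where all 58 arms on the array had a match, and the capitals mark the seed.
rno-miR-410: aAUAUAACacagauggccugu
rno-miR-376b-3p: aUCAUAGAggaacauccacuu
rno-miR-329: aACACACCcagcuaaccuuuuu
rno-miR-329*: aGAGGUUUucugggucucuguuuc
rno-miR-369-3p: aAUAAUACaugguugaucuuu
rno-miR-369-5p: aGAUCGACcguguuauauucgc
rno-miR-541: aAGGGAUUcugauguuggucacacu
rno-miR-539: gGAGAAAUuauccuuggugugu
rno-miR-382: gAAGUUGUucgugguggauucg
rno-miR-382*: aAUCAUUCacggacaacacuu
rno-miR-379*: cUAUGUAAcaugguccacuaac
The sequences of the 3 arms that fell show that none shares its seed with an arm that rose.
rno-miR-300-3p: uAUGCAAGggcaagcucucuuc
rno-miR-412: cUUCACCUgguccacuagccgu
rno-miR-485*: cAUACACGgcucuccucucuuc
The next 4 arms are shown for comparison: miR-376a and miR-376c as relatives of miR-376b-3p, miR-539* as the other arm of miR-539, and miR-411* as a near neighbor in sequence of miR-379*.
rno-miR-376a: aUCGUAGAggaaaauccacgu
rno-miR-376c: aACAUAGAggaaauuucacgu
rno-miR-539*: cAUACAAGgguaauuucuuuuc
rno-miR-411*: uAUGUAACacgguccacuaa

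Intensities are given in background-subtracted units after each array was scaled by its median over 120 probes. A negative value means that the spots were dimmer than their surroundings, and a probe was called detected on an array when it read 30 or more before scaling. The local background had a median of 63 to 141 units on the morphine arrays and 84 to 348 units on the saline arrays (exact permutation test, two-sided, p = 0.143), and 260 to 419 rat miRNA probes were detected on morphine arrays against 180 to 281 on saline arrays (exact permutation test, two-sided, p = 0.0159). The labeled tissue was checked against marker miRNAs. The summed intensity of 4 neuron-enriched miRNAs was 30998 to 102390 on morphine arrays and 507 to 1349 on saline arrays, and miR-9, miR-128 and miR-137, which define brain tissue, were under 30 on all 5 saline arrays. The 5 markers of connective tissue and vessel wall summed to 1435 to 5095 on morphine arrays and 9528 to 21919 on saline arrays, with miR-199a-3p under 30 on all 5 morphine arrays. Of these 5, 3 were called lower in the morphine group. The other 2, miR-143 and miR-145, overlapped between the groups and did not pass (limma, adjusted p = 0.475 and 0.0876). Thus 3 of the 4 neuronal markers of the labeled tissue were undetected on every saline array, and every difference between the groups below runs beside this one. Its part in the cluster's differences was not tested. Markers of blood cells (3 of 3 tested), endothelium (1 of 1) and oligodendrocytes (1 of 1) were also higher on the morphine arrays, those of skeletal muscle did not pass (0 of 1 tested), and 1 of 2 tested epithelial markers was lower. Morphine arrays 3 and 5 were the most alike of all pairs (Pearson's r = 0.971 across tested probes, next highest morphine pair 0.852). In bulk tissue, fewer cells of a type and less RNA per cell cannot be told apart.

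In chronic morphine-treated rats, some tested arms of the cluster had higher signal, a few had lower signal and the others did not pass the test. Of the 25 arms detected on at least 5 of the 10 arrays and therefore tested, 11 were higher in the morphine group (44%; 32.6% of all 301 tested rat probes were called higher) and 3 were lower (12%; 11.6% of all tested probes were called lower), by limma with Benjamini-Hochberg adjustment over the 301 probes. The remaining 11 did not pass. These shares are a description, since 6 of the 11 arms that were higher entered the test only through the morphine arrays and were detected on no saline array. Among the 12 arms at 30 or more on all 10 arrays, 2 were called higher (15.8% of the 120 such probes) and 2 lower (11.7% of them). The share called higher among these 12 arms was close to that of the 120 probes. Their median log2 fold change was -0.17, beside -0.21 over the 120 probes. Over the 25 arms, for 9 arms every morphine array lay above every saline array (36%; 21.3% of all tested probes), for 3 every morphine array lay below (12%; 8.31% of all tested probes), and for 13 the groups overlapped. The shares called lower, by either measure, were close to those of all tested probes. The median log2 fold change of the 25 arms, morphine over saline, was 1.06 (also with undetected saline groups set at their bound), beside 0.45 over all 301 probes, and single arms reached from -1.40 to 4.57. This median of the 25 arms depended on the scaling and the background correction. It was -0.44 after quantile normalization, where all tested probes had a median of -0.43. It was -0.20 after cyclic loess (all probes -0.18) and -0.06 when each array was scaled on its tested probes (all probes -0.46). It was also just below 0 on foreground intensities (-0.03, all probes -0.05) and after normexp background correction (-0.14, all probes -0.12), and was 0.78 after scaling on spike-in probes (all probes 0.16). When each array was read from its own negative-control probes, it was 0.15 (all probes 0.15). The scaling on tested probes gave 7 arms higher and 7 lower, whereas quantile normalization and cyclic loess gave 7 higher and 3 lower each. The log2 fold changes below are on the main scaling, with intensities under 30 set to 30.

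**Figure D1:**
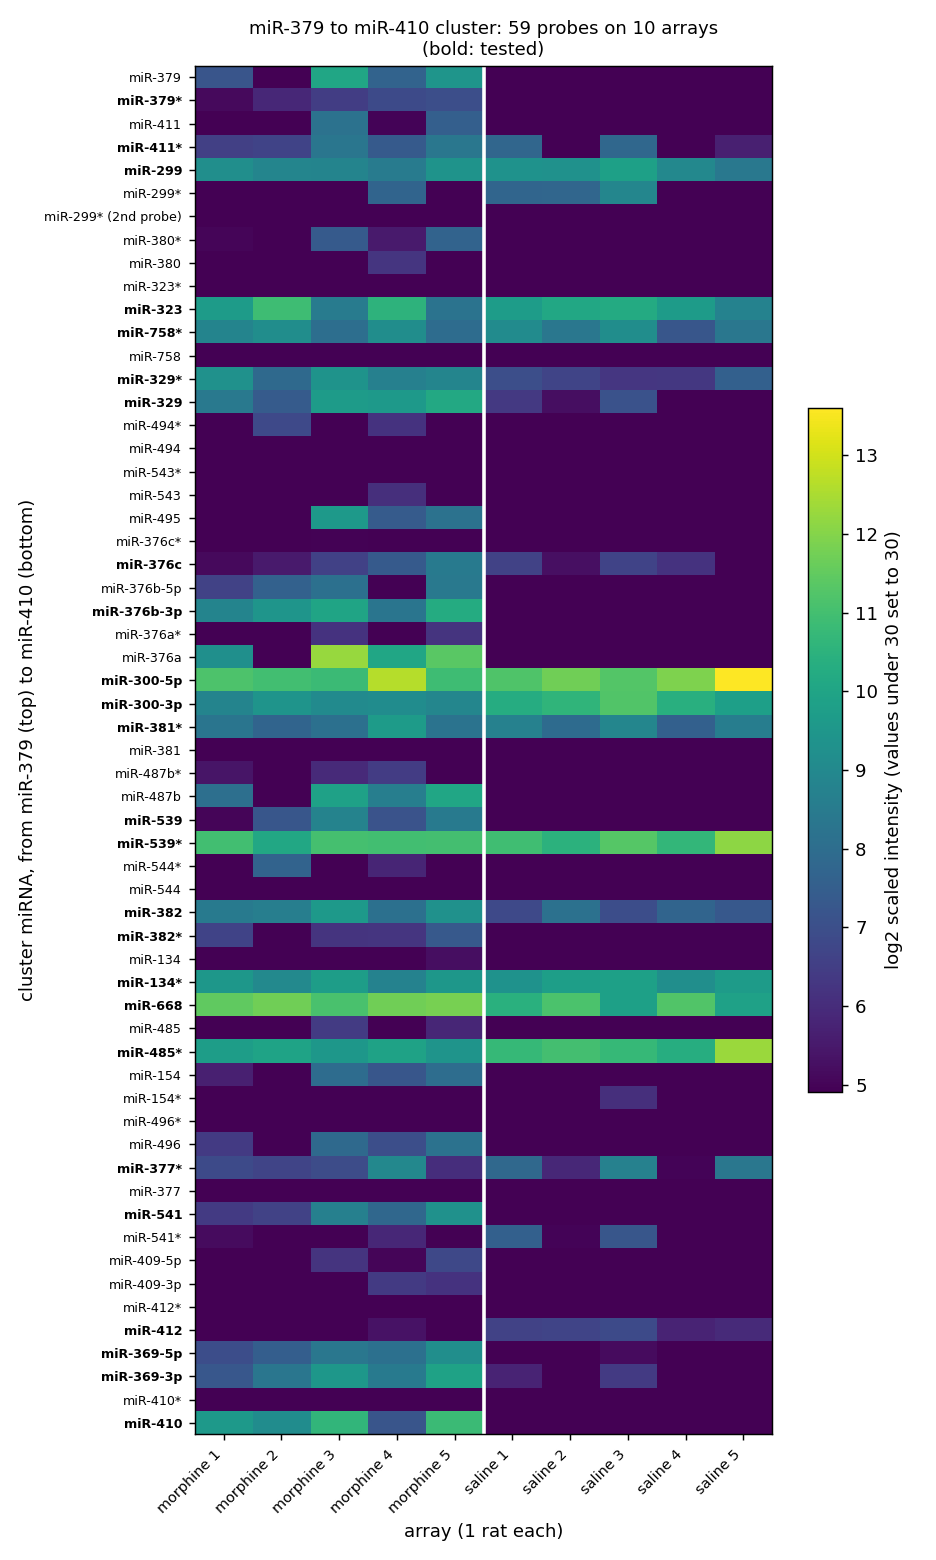
Log2 scaled intensity of the 59 cluster probes (rows, in order along the cluster from miR-379 at the top, tested arms in bold) on the 5 morphine and 5 saline arrays (columns), with values under 30 set to 30. Between 27 and 43 of them were detected on a morphine array (260 to 419 of all 679 rat probes). Between 14 and 23 were detected on a saline array (180 to 281 of all rat probes). miR-300-5p, miR-539* and miR-668 were bright on all 10 arrays.

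The arms with the largest log2 fold changes, miR-410 (4.57) and miR-376b-3p (4.45), were undetected in saline. miR-410, the last miRNA of the cluster and known for a role in insulin secretion in mouse beta cells, read 766, 556, 1596, 147 and 1820 units on the morphine arrays, against -18.7, -28.2, -4.69, -246 and -141 on the saline arrays. All morphine arrays were high, array 4 the least, and the groups did not overlap. Its level was at least 21.5-fold higher in the morphine group (limma, adjusted p = 8.7e-05). Here and below, "at least" sets the mean of the morphine arrays against the detection limit of the saline arrays, both on the log2 scale. Morphine values under 30 were set to 30 in that mean. For miR-410, miR-376b-3p, miR-541, miR-539, miR-379* and miR-382*, all 5 saline values were set to 30 and so had no spread, and the arms passed the filter only through the morphine arrays, so their adjusted p-values are given as the output of the fit and add no support.

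miR-376b-3p belongs to the miR-376 family, whose precursors are known to be edited from adenosine to inosine in human and mouse brain. It read 459, 692, 1010, 311 and 1225 units on the morphine arrays, against 2.96, -46.9, 21.2, -110 and -56.3 on the saline arrays. Morphine 4 was the dimmest of the morphine arrays, and no saline array was detected. The level was at least 19.9-fold higher (adjusted p = 1.2e-05), the smallest adjusted p of the cluster. miR-541 read 84.2, 98.8, 413, 224 and 639 units in the morphine group, against -2.28, -90.6, 8.89, -54.8 and -77.4 in the saline group. Its morphine values were spread widely, with arrays 1 and 2 low, but none overlapped saline (at least 6.59-fold higher, adjusted p = 0.0015).

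miR-539 read 32.6, 151, 441, 140 and 355 units on the morphine arrays, against -72.5, -105, -24.7, -209 and -218 on the saline arrays. Morphine array 1 was barely above 30, and the groups did not overlap (at least 4.87-fold higher, adjusted p = 0.00774). miR-379*, the 3p arm of the first precursor, read 35.4, 58.0, 90.4, 115 and 127 units in the morphine group, against -33.1, -80.7, -1.98, -160 and -219 in the saline group. All its morphine values were dim, though above saline (at least 2.33-fold higher, adjusted p = 0.0268). miR-382* was dimmer still relative to its spread, with 101, 28.8, 74.2, 75.6 and 163 units on the morphine arrays against -10.3, -37.3, 10.4, -78.4 and -80.9 on the saline arrays. Morphine array 2 fell under 30 after scaling, so that the groups overlapped once values under 30 were set to 30. With that array at 30, the mean of the morphine arrays was 2.34-fold above the detection limit of the saline arrays (limma, adjusted p = 0.033). The calls of miR-379* and miR-382* were lost without single arrays: for miR-379* without morphine 3, morphine 5, saline 1 or saline 2 (adjusted p = 0.0527 to 0.0638) and for miR-382* without morphine 1, 3 or 5 or saline 1, 2, 3 or 4 (adjusted p = 0.0528 to 0.0838). After normexp background correction the log2 fold change of miR-382* was -0.06.

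The other 5 arms that rose were detected on at least 1 saline array. miR-329, known for a role in activity-dependent dendrite growth in rat neurons, read 345, 168, 819, 768 and 1133 units on the morphine arrays, against 82.3, 37.8, 137, -20.2 and -38.6 on the saline arrays. The lowest morphine array exceeded the highest saline array, and the log2 fold change was 3.34 ± 0.63 (SE, adjusted p = 0.00103). Its partner miR-329* was detected on all 10 arrays and read 633, 235, 659, 415 and 467 units on morphine arrays, against 129, 104, 77.1, 79.7 and 191 on saline arrays. The groups were apart, with morphine 2 and saline 5 the nearest arrays (log2 fold change 2.05 ± 0.46, adjusted p = 0.00326).

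Both arms of the miR-369 precursor rose. miR-369-3p, known in human cells to bind AU-rich elements in TNF mRNA, read 155, 319, 721, 359 and 956 units on morphine arrays, against 54.7, -15.5, 84.0, -48.6 and -84.4 on saline arrays (log2 fold change 3.32 ± 0.56, adjusted p = 0.000454). miR-369-5p read 125, 182, 329, 277 and 588 units on morphine arrays, against -13.0, -84.5, 36.1, -97.1 and -184 on saline arrays (log2 fold change 3.07 ± 0.47, adjusted p = 0.000207). Neither arm overlapped between the groups, and for both, saline 1 and 3 were the brightest saline arrays and morphine 3 and 5 the brightest morphine arrays. miR-369-3p was detected on 2 saline arrays and miR-369-5p on 1, and their other saline values were set to 30. With a floor of 10 units the log2 fold changes were 4.27 and 4.34, and with a floor of 60 units 2.69 and 2.12. The morphine arrays alone carried both arms past the filter, so these adjusted p-values add no support. miR-382, known to target the D1 receptor gene Drd1 in rat nucleus accumbens, was detected on every array, with 363, 396, 759, 276 and 630 units in the morphine group against 115, 285, 126, 211 and 158 in the saline group. Morphine 4 lay just below saline 2, so the groups overlapped (log2 fold change 1.42 ± 0.46, adjusted p = 0.0236). This call was lost without morphine 3, morphine 5, saline 1 or saline 3 (adjusted p = 0.0532 to 0.0692).

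On all 11 arms that rose, the brightest morphine array was 3 or 5. The same held for 88 of the 98 rat probes called higher (89.8%), so this is not particular to the cluster. Leaving out morphine 3 or morphine 5 left 8 arms called higher, and counting both as 1 sample also left 8.

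Against this direction, 3 arms fell in the morphine group, and all of them lay wholly below saline. miR-300-3p read 455, 681, 536, 561 and 472 units on the morphine arrays, against 1239, 1543, 2437, 1333 and 907 on the saline arrays. The morphine values were close to each other and the highest of them was under the lowest saline value (log2 fold change -1.40 ± 0.41, adjusted p = 0.0153). miR-485*, the 3p arm of a precursor whose 5p arm is known to act on synapses in rat hippocampal neurons, read 869, 995, 725, 956 and 681 units on morphine arrays, against 1695, 2065, 1714, 1272 and 5049 on saline arrays. Saline 5 stood far above the other saline arrays, and the log2 fold change was -1.31 ± 0.46 (adjusted p = 0.033). Without saline 5 it was -0.99 (adjusted p = 0.056), and the call was also lost without morphine 1, 3 or 5 or saline 1 or 2 (adjusted p = 0.0503 to 0.0737). miR-412 read -22.1, -46.2, -19.3, 40.4 and -20.6 units on the morphine arrays, against 98.1, 104, 116, 54.8 and 61.8 on the saline arrays. It was detected on 1 morphine and all 5 saline arrays, and the log2 fold change was -1.39 ± 0.40 (adjusted p = 0.0146). Its other morphine values were set to the floor, so the size of the fall depends on the floor. With a floor of 10 units the log2 fold change of miR-412 was -2.66, and with a floor of 60 units -0.50. The saline arrays alone carried miR-412 past the filter, so its adjusted p-value adds no support. These 3 arms also lay below saline when each array was read from its own negative-control probes instead of the local background. Of the arms that rose, miR-329* overlapped on that baseline (morphine 2 at 293 and saline 5 at 359 units), and the 8 others without overlap stayed apart.

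**Figure D2:**
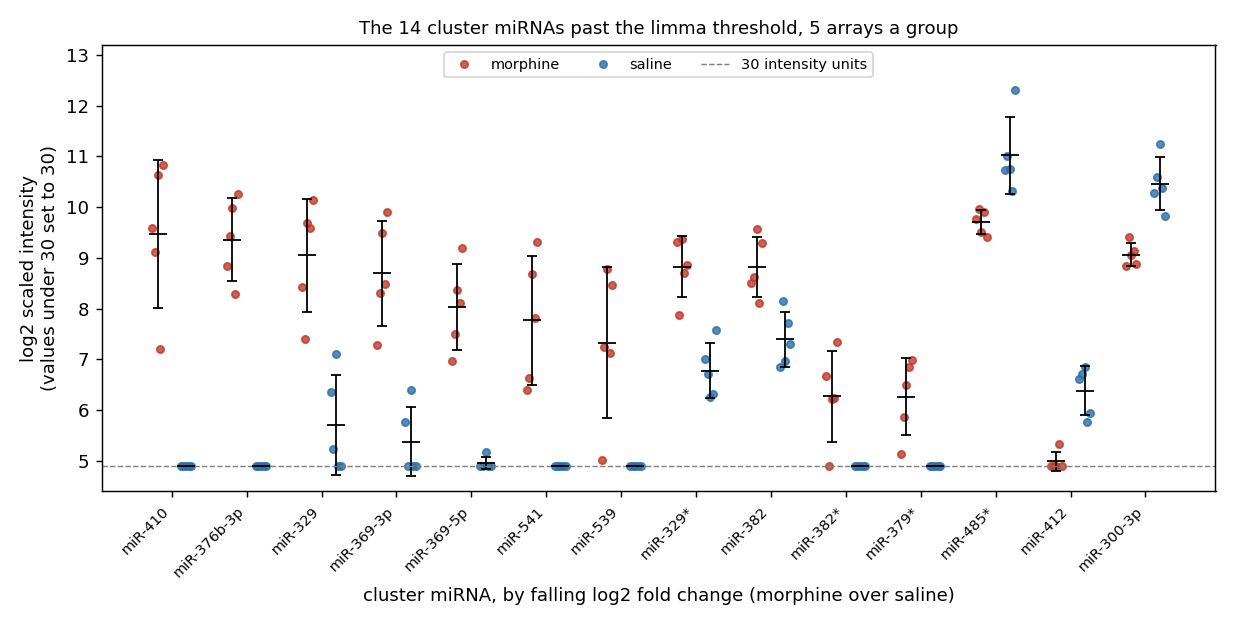
Log2 scaled intensity on each array of the 14 arms past the limma threshold, morphine (red, left) and saline (blue, right), with bars for the mean ± SD of 5 arrays and a dashed line at 30 units, the value given to dimmer probes. For 6 of the 11 arms that rose, all 5 saline points lie on the dashed line, and the 3 arms on the right that fell show no overlap.

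The other 11 tested arms did not pass the test and overlapped between the groups. Among them, miR-668 came nearest, with 2876, 3381, 2190, 3367 and 3629 units on morphine arrays against 1366, 2279, 929.6, 2394 and 953 on saline arrays. Only morphine 3 lay within the saline range (log2 fold change 1.06 ± 0.44, adjusted p = 0.0669). The arms detected on all 10 arrays with the smallest differences were miR-381* (382 ± 243 units in morphine and 345 ± 122 in saline, SD, n = 5 each, limma adjusted p = 0.93), miR-323 (979 ± 704 units in morphine and 879 ± 294 in saline, adjusted p = 0.881) and miR-758* (424 ± 161 in morphine and 385 ± 175 in saline, adjusted p = 0.768). miR-299 (510 ± 116 units in morphine and 610 ± 218 in saline), miR-134* (654 ± 173 in morphine and 771 ± 147 in saline), miR-539* and miR-300-5p were likewise detected on every array, with log2 fold changes of -0.21, -0.26, -0.30 and -0.64 (adjusted p = 0.409 to 0.708). miR-300-5p had the highest single value of the cluster, 12434 units on saline 5, against 2351 to 3895 units on the other saline arrays. The last 3 arms, miR-376c, miR-411* and miR-377*, were detected on all morphine arrays and on 3 or 4 saline arrays, and their log2 fold changes were 0.71, 1.23 and -0.06.

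Several of the 14 calls ended under another processing of the same intensities. miR-410 and miR-369-5p passed in each of the 25 alternatives that gave them a value. miR-376b-3p, miR-329 and miR-369-3p passed in each but the methods' t-test. For miR-410 and miR-376b-3p, passes with all saline values at the floor add no support. Their log2 fold changes stayed at 4.57 and 4.45 when a single saline array was left out. For miR-369-5p, miR-369-3p and miR-329, some saline values were at the floor too, so their passes depend partly on it. The filter on all arrays and the methods' t-test gave miR-410 no value. Its log2 fold change was 2.50 on foreground intensities and 2.34 after normexp correction. The call of miR-539 was lost after cyclic loess (limma, adjusted p = 0.0715), and that of miR-541 on foreground intensities (0.063) and after normexp correction (0.136). That of miR-329* was lost on foreground intensities, after normexp correction and under 3 other scalings (0.0747 to 0.249). It was also lost by the methods' t-test (adjusted p = 0.0591). The fall of miR-300-3p was not called after scaling on small nucleolar and nuclear RNA probes (limma, adjusted p = 0.052) or on spike-in probes (0.0604). The methods' t-test did not call it either (adjusted p = 0.0923). The fall of miR-412 was not called with a floor of 60 units (limma, adjusted p = 0.198) or with the replicate block (0.0554). The calls that ended most often were those of miR-382* (17 of 25 alternatives, besides the one that turned its sign), miR-382 (14 of 27; log2 fold change 0.35 after quantile normalization and 0.20 after cyclic loess), miR-379* (12 of 25; 0.26 after normexp correction) and miR-485* (11 of 27). miR-668, on the other side of the threshold, was called higher in 7 of 27 alternatives: after cyclic loess (adjusted p = 0.0327), with no scaling (0.037), on foreground intensities (0.0251), after normexp correction (0.0192), on the negative-control baseline (0.0397), with a floor of 60 units (0.038) and without saline 4 (0.0458).

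The cluster arms outside the test were mostly seen in the morphine group or not at all. They were 33 arms with 34 probes. Of these probes, 12 were detected on no array, 18 on morphine arrays only and 4 on at least 1 saline array. The same counts were not made over all 679 rat probes. Because each of the 34 probes was detected on fewer than 5 arrays, their values are given without a test. miR-376a reached the highest of these intensities, with 610, 7.64, 4945, 1064 and 2688 units on the morphine arrays, against -18.2, -70.6, -16.6, -126 and -129 on the saline arrays. Morphine 2 stood with the saline arrays and the other 4 far above them. With morphine 2 set to 30, the mean of the 5 morphine arrays was 23.1-fold above the detection limit of the saline arrays. Because morphine 2 itself read only 7.64 units, this value is not a lower bound.

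miR-487b read 270, 14.5, 936, 391 and 1070 units in the morphine group, against 19.2, -16.0, 23.0, -71.9 and -107 in the saline group, and again only morphine 2 lay with saline. miR-379, the first miRNA of the cluster, read 145, -19.2, 1064, 204 and 690 units on morphine arrays, against -18.5, -75.9, -0.99, -179 and -324 on saline arrays. miR-495, known to target Bdnf in rodents, read 25.1, -11.4, 774, 169 and 292 units on morphine arrays, against -39.7, -100.2, -16.8, -163 and -227 on saline arrays. In both, morphine 3 was the brightest array and morphine 2 was undetected, and miR-495 was undetected on morphine 1 as well. miR-376b-5p, in contrast, was detected on morphine 2 (193 units) and undetected on morphine 4 (25.1 units), and its brightest value was 345 units on morphine 5.

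miR-154, miR-496 and miR-380* were also detected on 4 morphine and 0 saline arrays. miR-411 and miR-409-5p, like miR-495, were detected on 3 morphine and 0 saline arrays. Over the cluster, 16 probes, 6 of them tested, were detected on 3 or more morphine arrays and on no saline array. The share of such probes among all 679 rat probes was not counted. Morphine arrays detected more rat probes in general (260 to 419 against 180 to 281), so the count is not read as a trait of the cluster. All 16 were brightest, among morphine arrays, on array 3 or 5, and 9 of them were undetected on morphine 2. Read from the negative-control probes of each array, 10 of the 16 had every morphine array above every saline array. Dim values were not set to the floor in this comparison, so small differences between them counted. For miR-411, which overlapped on the main scaling, morphine 2 and morphine 4 read 25.4 and 25.8 units there, against at most 23.3 on a saline array. The 16 were also chosen by detection in morphine and not in saline, so this count adds no support. When all 679 rat probes were tested without the filter, 13 cluster probes were called higher (11.0% of all 679 probes) and 3 lower (3.68% of them), with miR-376a, miR-487b and miR-376b-5p added (limma, adjusted p = 0.039, 0.039 and 0.0465) and miR-382* lost (0.0504).

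miR-134, which is known to sit in dendrites of rat hippocampal neurons and to limit the size of their spines, was near the detection limit throughout. It read -13.3, -21.6, 13.5, 27.5 and 37.8 units on morphine arrays, against -27.1, -72.7, -6.92, -173 and -190 on saline arrays, and 2 morphine arrays were called detected. miR-485, known to act on presynaptic function in rat hippocampal neurons, was detected on the same number of morphine arrays, with -20.1, -44.5, 86.1, 20.0 and 57.3 units, against -48.4, -100.4, -24.5, -182 and -274 on the saline arrays. miR-381, the partner of miR-134 and miR-329 in dendrite growth, was detected on no array. A few arms were seen in saline: miR-541* on 2 morphine and 2 saline arrays, miR-487b* on 3 morphine and 1 saline array, miR-154* on 1 saline array, and the miR-299* probe that also reads miR-3563-3p on 1 morphine and 3 saline arrays, while the other miR-299* probe was detected on none.

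To compare the arms of a precursor, the log2 difference of both arms was taken on each array and its change between the groups was tested over all 60 rat precursors with both arms tested. In the cluster, 28 of 30 precursors had a probe of their own for each arm, and of these both arms passed the filter in 5, 1 arm in 14 and none in 9. Of the 5, only miR-539 passed (30.0% of the 60 precursors were called, in either direction). Because miR-539 was detected on no saline array and was set to 30 there, its saline differences are bounds set by the floor and by miR-539*, and its p-value adds no support. The log2 difference, miR-539 minus miR-539*, was -5.93, -2.87, -2.24, -3.83 and -2.52 on the morphine arrays, against -6.04, -5.59, -6.41, -5.75 and -7.22 on the saline arrays. Morphine 1 lay within the saline range and the other 4 morphine arrays above it, and the change was 2.73 ± 0.75 (SE, adjusted p = 0.0167). miR-539* itself read 1983, 1102, 2080, 2002 and 2033 units on morphine arrays, against 1976, 1445, 2545, 1616 and 4477 on saline arrays and did not pass the test on its own. This call was lost after quantile normalization (0.0518), cyclic loess (0.124) and normexp correction (0.0565), by adjusted p.

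The change of the difference was 1.30 ± 0.73 for miR-329 minus miR-329* (adjusted p = 0.21) and -0.76 ± 0.74 for miR-300-3p minus miR-300-5p (adjusted p = 0.434), although miR-300-3p alone was called lower. It was 0.25 ± 0.52 for miR-369-3p minus miR-369-5p (adjusted p = 0.77) and 0.05 ± 0.60 for miR-382 minus miR-382* (adjusted p = 0.978), both precursors whose arms had both risen. A difference under the threshold does not show that the arms moved alike. In 4 precursors (miR-299, miR-323, miR-758 and miR-381), 1 arm was detected on all 10 arrays and the other, by its own probe, on none. By side of the hairpin (miR-668 has no arm in its name and was left out), 5 of 10 tested 5p arms rose and 0 fell (median log2 fold change 0.81), and of 14 tested 3p arms 6 rose and 3 fell (median 0.97), where 32.6% of all tested probes were called higher and 11.6% lower. By name, 8 of 15 unstarred arms rose and 2 fell (median 1.42), and 3 of 10 starred arms rose and 1 fell (median 0.12).

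**Figure D3:**
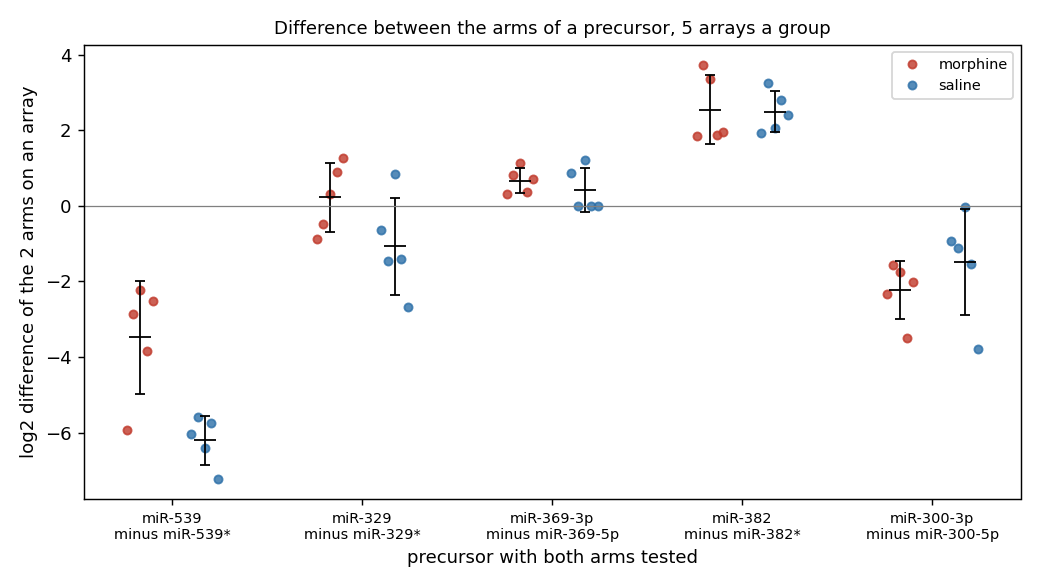
Log2 difference between the 2 arms of a precursor on each array, morphine (red, left) and saline (blue, right), with bars for the mean ± SD of 5 arrays, for the 5 precursors with both arms tested. The height of a precursor depends on its probes, so only the shift between groups is read: 4 of 5 morphine points lie above all saline points for miR-539, and the groups overlap in every precursor.

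Along the chromosome, the arms lie within 36.4 kb of the forward strand (chr6:134543460-134579828, GRCr8), and gaps over 4 kb split them into 3 stretches. In the first, from miR-379 to miR-495, 3 of 7 tested arms rose and 0 fell (median log2 fold change 1.23, range -0.21 to 3.34). In the second, from miR-376c* to miR-544, 2 of 7 rose and 1 fell (median 0.05, range -1.40 to 4.45). In the third, from miR-382 to miR-410, 6 of 11 rose and 2 fell (median 1.37, range -1.39 to 4.57). Over all tested probes, 32.6% were called higher and 11.6% lower, and with 7 to 11 tested arms a stretch, no difference between the stretches is read from these counts. At the far end, miR-412 fell and lies between miR-541 and miR-369-5p, which both rose. The log2 fold change and the position had a Spearman correlation of 0.14 over the 25 tested arms, which share the arrays and, as far as known, a primary transcript.

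**Figure D4:**
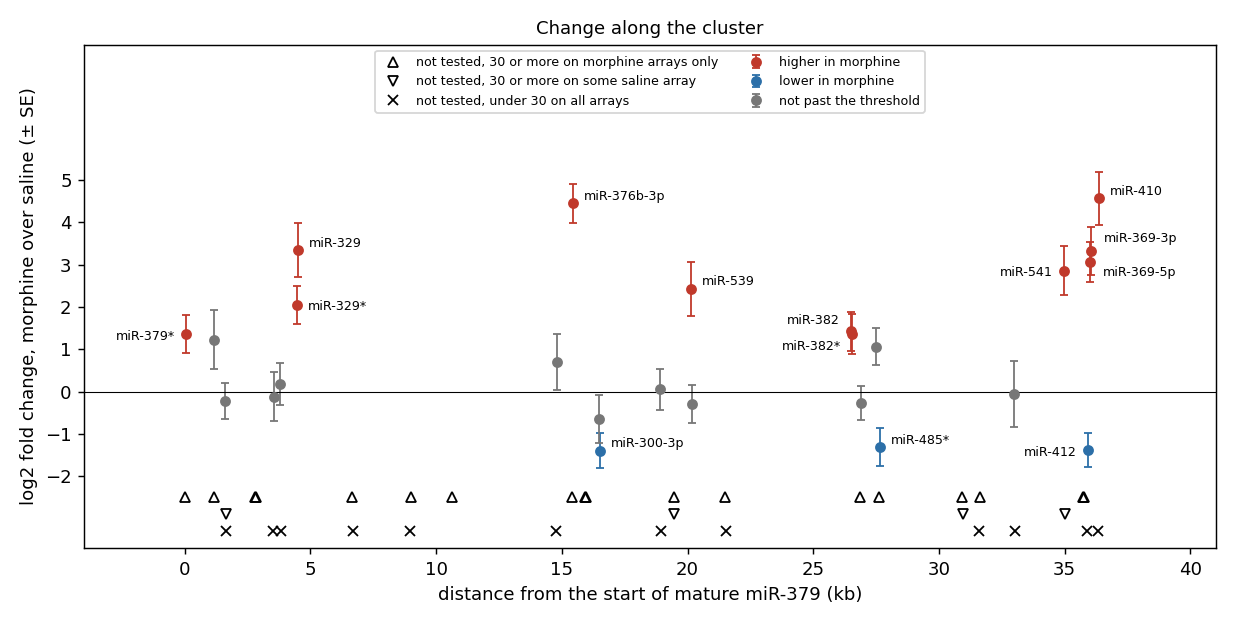
Log2 fold change (morphine over saline, ± SE) of the 25 tested arms against distance from the start of miR-379 in kb, in red where higher, blue where lower and grey where not past the threshold. The symbols at the bottom place the 34 untested probes, and arms that rose (up to 4.57) and fell (down to -1.40) lie side by side.

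The base composition of the arms was compared without a test. The GC content of the mature sequence had a median of 40.9% in the 11 arms that rose (23.8% to 50%), 54.5% in the 3 that fell and 45.5% in the 11 that did not pass. The 14 tested arms that did not rise ranged from 31.8% to 66.7%, so the ranges overlapped. The Spearman correlation of GC content with the log2 fold change was -0.42 over the 25 arms. The part of base composition in the probe signals was not tested. Only 3 seeds were shared by several arms. GGUUGUC is the seed of miR-494*, miR-496* and miR-410*, none of them tested, UGGAUAU is that of miR-376c* and miR-376b-5p, also untested, and AUACAAG is that of miR-381, detected on no array, and miR-539*, which did not pass. The change therefore cannot be compared within a seed group. Some arms are so alike that a probe may read both: miR-376b-3p differs from miR-376a at 3 bases and from miR-376c at 5, and miR-379* from miR-411* at 3, counting bases replaced, added or removed. The log2 fold changes of miR-379* and miR-411* were 1.36 and 1.23, whereas those of miR-376b-3p and miR-376c were 4.45 and 0.71.

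The same imprinted region holds further miRNAs outside the cluster, and these were counted in the same fit. Of 27 probes for 15 such miRNA genes, 15 were tested, of which 6 were higher in the morphine group, 0 were lower and 9 did not pass (32.6% of all tested probes were called higher and 11.6% lower), with a median log2 fold change of 0.99. miR-136 (log2 fold change 4.00), miR-136* (3.86), miR-434 (3.55), miR-434* (2.94), miR-127* (2.63) and miR-127 (2.43) were the 6 that rose, and miR-770* had the lowest value (-1.15, adjusted p = 0.0938). These are the products of 3 precursors, miR-127, miR-434 and miR-136, which lie between Meg3 and miR-379, and miR-127 is known in mice for silencing the paternally expressed gene Rtl1. All 6 were detected on at least 4 morphine arrays. For miR-667, which did not pass, every morphine array lay below every saline array (log2 fold change -0.79, limma adjusted p = 0.122).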

How the data were processed

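Per the labels and the study's methods, the authors labeled total RNA of each rat with Hy3 (another label field names biotin), used version 18 miRCURY LNA arrays and extracted the spots with GenePix. The deposited spot table holds linear foreground and background-subtracted intensities that were not scaled between arrays. A value table, also deposited, equaled the spot median for all 35410 values (tolerance 1e-06), so it was not normalized. The sources used here do not give how local background was estimated, nor slide or scan, so treatment and handling cannot be told apart.

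Background-subtracted intensities of the usual 4 spots of a probe were averaged. As scaling factor of an array served its median of 120 probes, those rat miRNA probes that reached 30 everywhere, and the geometric mean of all factors (1004) brought values back to intensity units. Values under 30 were set to 30, and log2 was taken. limma 3.58.1 (R 4.3.3) compared 5 arrays with 5 (two-sided, adjusted p threshold 0.05) on the 301 rat probes that reached 30 on 5 or more arrays, and was first tested on simulated data. The same fit was run on per-array log2 differences between arms of a precursor. Array-level values were compared by exact permutation tests (smallest possible p = 0.00794). Star names were assigned to 5p or 3p by miRBase naming and matched to RefSeq. The methods' t-test was run on scaled intensities above 0, without the log. Named were arms detected on all arrays, arms past the threshold whose groups did not overlap, both arms of precursors with both tested, miR-134, miR-382, miR-485 and miR-495, and untested arms detected on some array. Members, lists, markers and rules were chosen with earlier results of these data known. The number of arrays limits the precision, and p-values measure the spread between these 10 arrays.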

Additional observations from a re-analysis of the deposited data

Results flagged for a closer look

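Among the 36 sets of 5 values in which an arm was at 30 or more on every array of a group, 2 held a single array far from the others on the log2 scale. For rno-miR-300-5p, morphine 4 read 6343 units, and its gap to the next morphine array was 0.815 of the range of the group. For rno-miR-539*, morphine 2 read 1102 units, and its gap was 0.925 of the range. A distant array at 5 values is marked above 0.71, which chance passes in about 1 group in 20. Neither arm passed the test between the groups, also without these arrays: the log2 fold change of miR-300-5p was -0.98 without morphine 4 (limma, adjusted p = 0.159) and that of miR-539* was -0.13 without morphine 2 (limma, adjusted p = 0.838).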

How the results depend on the processing

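The 11 arms called higher and 3 called lower became 8 to 11 higher and 2 to 3 lower when 1 array was left out. The count of arms called higher was 7 after quantile normalization, 7 after cyclic loess and 7 after normexp background correction (with either of these 2 methods, 6 of the 11 and miR-668), 7 after scaling on the tested probes, 2 among arms at 30 or more on all 10 arrays (12 arms were tested there) and 0 by the methods' t-test (4 arms at an unadjusted p under 0.05). The count of arms called lower was 1 after scaling on spike-in probes, 7 after scaling on the tested probes (the 3 of the main analysis plus miR-299, miR-300-5p, miR-539* and miR-134*) and 0 by the methods' t-test. That t-test gave no value for miR-410, miR-369-5p, miR-541, miR-539, miR-382*, miR-379* and miR-412, which had too few values above 0 in a group. Scaling on the tested probes, and counting morphine 3 and 5 as 1 sample, were chosen after seeing the data. The log2 fold change of miR-382* reversed to -0.0613 after normexp correction. The count of precursors whose arms differed in their change, 1 in the main analysis and 1 without any single array, was 0 after quantile normalization, cyclic loess and normexp correction and with the filter at all 10 arrays, and 10 with no filter, where probes set to 30 on all arrays of a group enter. The causes of the other changes were not tested.

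Replicate numbers are shared by both groups in the labels. Same-numbered arrays had correlations of their deviations of 0.02, 0.05, -0.17, -0.40 and 0.04. These values gave no sign of pairing by number, but cannot show whether rats were handled in pairs. With the replicate block, 8 arms were called higher and 1 lower, and 0 precursors differed between arms. Scaling on the median of all rat probes was not run, because this median was negative on some arrays. A level under 30 units sets only a bound, which covers all 5 saline arrays for 6 of the 11 arms that rose.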
